A study of Homo sapiens with 60 samples.

Results

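HCC2935 is a human lung adenocarcinoma cell line, listed by the labels among the EGFR mutant non-small cell lung cancer lines, and the comparison described here is between its osimertinib-tolerant persister cells and its vehicle-treated parental cells. The 6 libraries, of 60 in the whole series, were chosen by their titles. There were 3 of HCC2935 DTP cells (drug-tolerant persisters), kept in 500 nM osimertinib for 21 days and harvested in the drug, and 3 of HCC2935 DMSO cells, grown without drug for 21 days and then given DMSO for 24 h. The 3 libraries of a group are biological triplicates of 1 cell line according to the labels, so their spread is between cultures and not between patients. For context, 3 further HCC2935 arms of 3 libraries each are given by value. These are acute cells (21 days without drug, then 500 nM osimertinib for 24 h), short washout cells (DTP cells returned to drug-free medium for 24 h) and long washout cells (10 days, when exponential growth had resumed). The DTP and DMSO libraries of PC9, HCC827 and H1975, which are other EGFR mutant lines, served to test whether the HCC2935 response differed.

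Osimertinib is a covalent inhibitor of mutant EGFR, the receptor tyrosine kinase at the head of the RAS, RAF, MEK and ERK cascade and of PI3K and AKT signalling. Most cells of a sensitive line die or stop dividing in the drug, and a small surviving population, the persisters, tolerates it without a fixed resistance mutation and can grow again when the drug is withdrawn. ERK activity is read through short-lived feedback genes such as the DUSP phosphatases and Sprouty proteins, proliferation through replication and mitosis genes, and YAP/TEAD activity through secreted matrix-associated genes such as CCN2.

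The libraries held 20378202 to 23966956 estimated counts in the DMSO group and 20777972 to 24730417 in the DTP group, so the depths overlapped. The 10 most counted genes took 6.43% to 6.83% of the DMSO counts and 8.31% to 8.55% of the DTP counts. Each of these 6 libraries correlated more closely with the other HCC2935 libraries (0.903 or more) than with any library of another line (0.814 or less), although the growth protocol text attached to these samples names NCI-H1975. Values of 3 libraries are given below in the order of replicates 1 to 3, and a mean is followed by its SD (n = 3). Of 10 lung adenocarcinoma cell markers all 10 were measured in both groups and their summed level was 13131 to 15023 (DMSO) and 11063 to 11994 (DTP) in counts-per-million (CPM), with EPCAM, an epithelial adhesion molecule, at 619, 579.5 and 625 CPM in the DMSO libraries and 411, 444 and 379 CPM in the DTP libraries. Of the fibroblast, immune and endothelial markers 5 of 10, 3 of 12 and 5 of 8 had enough counts for the test. Their summed levels were 431 to 509 CPM (DMSO) and 707 to 788 CPM (DTP) for the fibroblast list, which is mostly COL1A1 and FBLN1, 65.4 to 91.3 and 8.50 to 9.28 CPM for the immune list, which is mostly the lysosomal protein gene CD68, and 32.1 to 38.9 and 31.6 to 36.8 CPM for the endothelial list, which is mostly CDH5. Defining markers at 0 counts were POSTN and THY1 of fibroblasts, CD3D, CD2, MS4A1 and TYROBP of immune cells and ERG of endothelium in all 6 libraries, and PDGFRB and FCER1G in the DMSO libraries alone. Of the tested fibroblast markers 3 were called higher in DTP cells (5 without DMSO replicate 2). The part of such cells in the results was not tested.

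Expression differed between persister and DMSO cells over much of the transcriptome. Of 14212 genes tested, 7455 (52.5%) passed edgeR's quasi-likelihood test at a Benjamini-Hochberg adjusted p under 0.05. The DTP libraries were higher for 3592 genes (25.3%) and lower for 3863 (27.2%), and 1678 of the former and 1167 of the latter changed at least 2-fold. The median log2 fold change over all genes tested was -0.0013, so list medians can be read against 0. On the deposited log2 TPM values tested with limma, 62.3% of calls were higher against 48.2% in the count test, and the median of all genes shifted by 0.17. Each list below is to be read against these shares of all genes, 25.3% higher and 27.2% lower.

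The 10 highest and 10 lowest genes by the naming rule were of several kinds. Among the highest were 2 chains of basement membrane collagen, COL4A3 and COL4A4, the insulin-like growth factor binding protein IGFBP5, the chemokine scavenger receptor ACKR3, the metalloproteinase ADAMTS15, the matrix-associated protein MXRA5, the kinase DCLK2, the ubiquitin ligase RNF150 and the transcription factor ATOH8. IGFBP5 rose from 0.499, 0.566 and 0.237 CPM to 32.0, 72.7 and 26.8 CPM, a log2 fold change of 6.61 ± 0.51 (SE; adjusted p = 1.52e-05). ADAMTS15 stood at 0.249, 0.189 and 0.379 CPM in DMSO cells and 18.2, 18.4 and 15.6 CPM in DTP cells (5.95 ± 0.26). The tenth, TCHHL1, had 1, 1 and 0 counts in the DMSO libraries and 92, 407 and 281 in the DTP libraries, and no fold is given against so few counts. The lowest genes were the secreted mucins MUC5AC and MUC5B, SPRR1B, KRT6A, KRT78, the vitamin B12 binding protein TCN1, the chloride transporter SLC26A9, the retinol dehydrogenase DHRS9, the adenosine receptor ADORA1 and C9orf152. SPRR1B, a cornified envelope precursor, fell from 97.5, 90.2 and 146 to 3.82, 1.87 and 2.27 CPM (-5.42 ± 0.29, adjusted p = 2.43e-06). No group overlapped for any of these 20 genes, which the rule required.

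**Figure D1:**
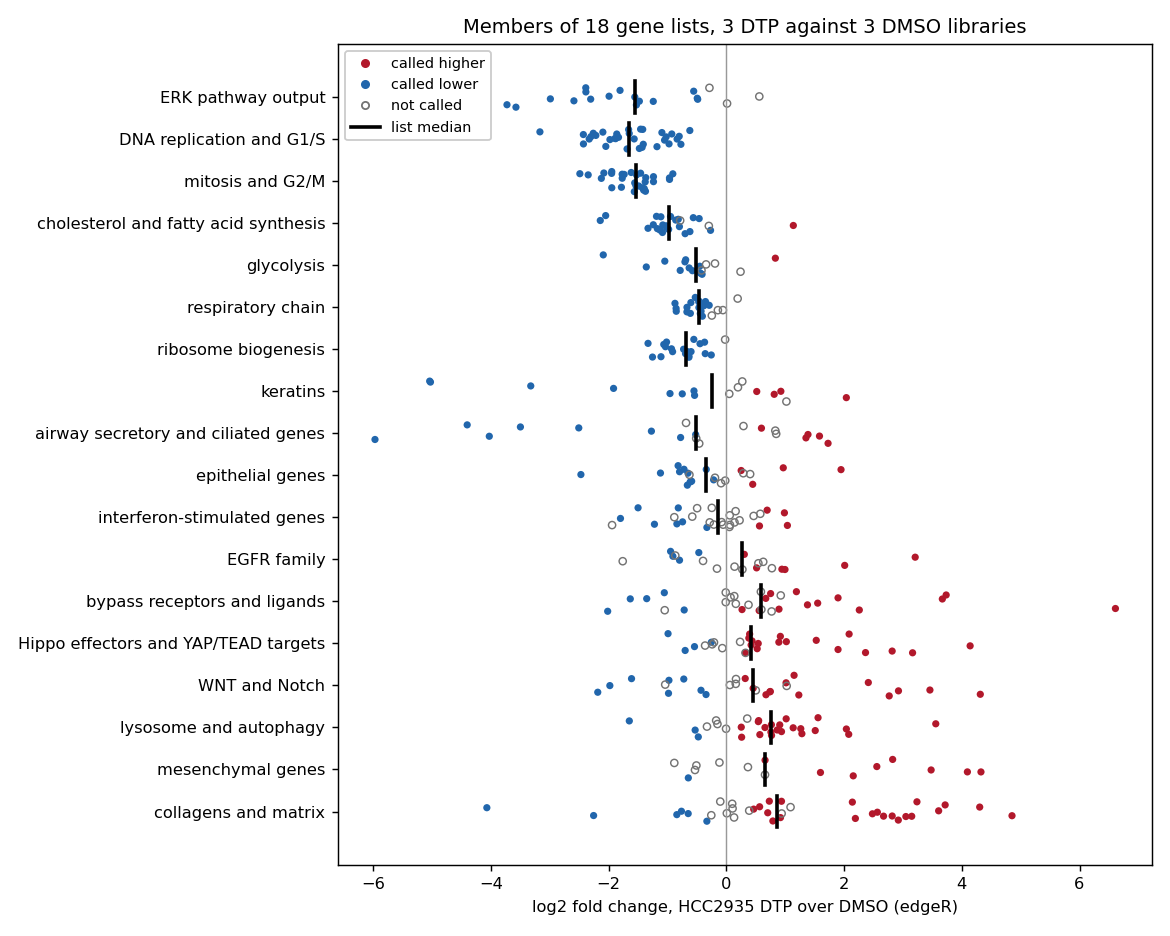
Log2 fold changes (edgeR, DTP over DMSO, x axis) of the tested members of 18 gene lists (rows), 1 point per gene, filled red or blue where called higher or lower at adjusted p under 0.05 and open where not, with a black bar at each list's median. All called replication and mitosis members lie left of 0, whereas 21 of 36 collagen and matrix genes were called higher.

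ERK pathway output was low in persisters. Of 19 listed target genes, all tested, 16 fell and none rose, against 27.2% and 25.3% of all genes, with a median log2 fold change of -1.56. DUSP6, the phosphatase that switches ERK off and is itself induced by ERK, fell from 165, 159.6 and 155 CPM in the 3 DMSO libraries to 15.5, 12.4 and 8.94 CPM in the 3 DTP libraries, a 13.3-fold decrease (log2 -3.73 ± 0.17, adjusted p = 1.23e-06). FOSL1, an AP-1 subunit stabilised by ERK, fell from 58.9, 80.4 and 58.9 to 17.3, 9.40 and 6.67 CPM (-2.59 ± 0.30). Every DTP library lay below every DMSO library for both genes. The ETS factors ETV4 and ETV5 changed by -3.58 ± 0.24 and -2.39 ± 0.23, and the feedback inhibitors SPRY4 and DUSP5 by -2.99 ± 0.34 and -2.39 ± 0.28. After 24 h of drug the same list had a median of -3.12, and the direct test of DTP against acute cells placed 12 of its 19 members higher in DTP cells and none lower, against 22.0% and 20.4% of all 14339 genes tested there (42.4% in either direction). DUSP6 averaged 3.56 ± 1.17 CPM in acute cells and FOSL1 2.34 ± 0.464 CPM, and DTP cells exceeded acute cells by 1.79 (adjusted p = 7.86e-04) and 2.26 (adjusted p = 6.68e-04) on the log2 scale. ETV4 did not pass that test (0.41, adjusted p = 0.346). DUSP6 remained at 14.3 ± 2.69 CPM after 24 h without drug and 20.1 ± 7.25 CPM after 10 days.

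The receptors of the EGFR family moved in opposite directions. EGFR itself (chr7:55019021-55211628, plus strand, GRCh38) rose from 614, 647 and 573 CPM to 1074, 783 and 807 CPM, a log2 fold change of 0.51 ± 0.12 (adjusted p = 0.0071), with no overlap between the groups. In acute cells it was below the DMSO level, at 345 ± 27.4 CPM (-0.87, adjusted p = 5.98e-05). ERBB3, the kinase-impaired receptor that couples to PI3K, fell from 158, 161 and 157 to 86.8, 98.9 and 72.0 CPM (-0.91 ± 0.11, adjusted p = 2.03e-04). In acute cells ERBB3 was higher than in DMSO cells (0.70, adjusted p = 8.06e-05). DTP and acute cells differed in both genes by the direct test, by 1.38 for EGFR and -1.62 for ERBB3. ERBB4 rose from under 1 CPM, 0.499, 0.378 and 0.332, to 5.79, 1.43 and 4.35 CPM (3.21 ± 0.56, adjusted p = 0.00127). ERBB2 was higher by 0.30 ± 0.09 (adjusted p = 0.02), a call that was lost without DMSO replicate 1 (adjusted p = 0.0668), without DTP replicate 1 (adjusted p = 0.0621) and without DTP replicate 3 (adjusted p = 0.0626), and also with a replicate block (adjusted p = 0.059).

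Among 9 tested EGFR family ligands 3 rose and none fell. NRG1, the neuregulin that binds ERBB3 and ERBB4, rose from 3.12, 3.82 and 1.99 to 13.3, 12.1 and 11.2 CPM (2.01 ± 0.24, adjusted p = 1.61e-04). HBEGF, an EGFR and ERBB4 ligand, rose from 12.7, 15.3 and 13.9 to 35.5, 26.2 and 23.4 CPM (1.00 ± 0.17, adjusted p = 0.00115). It averaged 3.86 ± 2.07 CPM in acute cells. EGF was higher by 0.94 ± 0.35, but its groups overlapped, the call was lost on leaving out any library but DTP replicate 2 (adjusted p up to 0.215) and with a replicate block (adjusted p = 0.0669), and without DTP replicate 3 the value was 0.59. The ERK-induced ligands TGFA and AREG did not pass the test in DTP cells (-0.40 ± 0.17 and -0.87 ± 0.35, both with overlapping groups), and nor did BTC (0.63), EPGN (0.77), EREG (0.14) or NRG4 (-1.76). Several of these calls depended on 1 library or on the method. Without DTP replicate 1, TGFA (-0.65, adjusted p = 0.00171), AREG (-1.51, adjusted p = 2.18e-04) and EPGN (1.19, adjusted p = 0.0139) passed the test, and BTC did so without DMSO replicate 1 (0.82, adjusted p = 0.0342). BTC also passed with DESeq2 (adjusted p = 0.0408), limma (adjusted p = 0.0196) and 4 other settings (adjusted p 0.0258 to 0.0456), and AREG with DESeq2 (adjusted p = 0.0208) and a replicate block (adjusted p = 0.0241). NRG4 stood at 10.8 CPM in DMSO replicate 3 and below 1 CPM in the other DMSO libraries, and without that replicate it was higher in DTP cells by 2.20 (adjusted p = 0.0196). EREG turned to -0.22 without DMSO replicate 3 and to -0.31 without DTP replicate 2. Of the 6 inhibitors and adaptors, ERRFI1 and LRIG1, which restrain EGFR, fell by 0.80 ± 0.12 and 0.95 ± 0.21 on the log2 scale, and the adaptor GRB2 fell by 0.47 ± 0.09. SHC1 (-0.16), CBL (0.27; adjusted p = 0.0403 with a filter of 10 counts in every library and 0.0274 in a fit of all 15 libraries) and LRIG3 (0.54) were not called, and LRIG3 was called without DMSO replicate 3 (0.75, adjusted p = 0.0417) or DTP replicate 1 (0.77, adjusted p = 0.0131).

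Of 29 tested receptors, ligands and binding proteins linked to bypass of EGFR 13 were higher and 5 lower, with a median of 0.59. Among the 15 receptors 5 were higher and 2 lower (median 0.27), against 25.3% and 27.2% of all genes. The 14 ligands and binding proteins had 8 higher and 3 lower (median 0.85). IGFBP3, which binds insulin-like growth factors and was already abundant, rose from 251, 246 and 230.5 to 814, 1097 and 847 CPM (1.90 ± 0.12). GAS6, the ligand of the AXL and MERTK receptors, rose from 53.4, 50.8 and 37.9 to 240.0, 246 and 206 CPM (2.26 ± 0.14). IGF1 went from 1.25, 1.27 and 1.42 to 6.57, 29.6 and 17.3 CPM and FGF2 from 0.748, 0.566 and 0.237 to 10.2, 4.94 and 5.32 CPM, with log2 fold changes of 3.73 ± 0.51 and 3.67 ± 0.46. FGF9 fell (-2.02 ± 0.50). The receptor MET, a common bypass of EGFR inhibition when amplified, fell from 444, 447 and 422 to 356, 217 and 241 CPM (-0.72 ± 0.16, adjusted p = 0.00529).

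**Figure D2:**
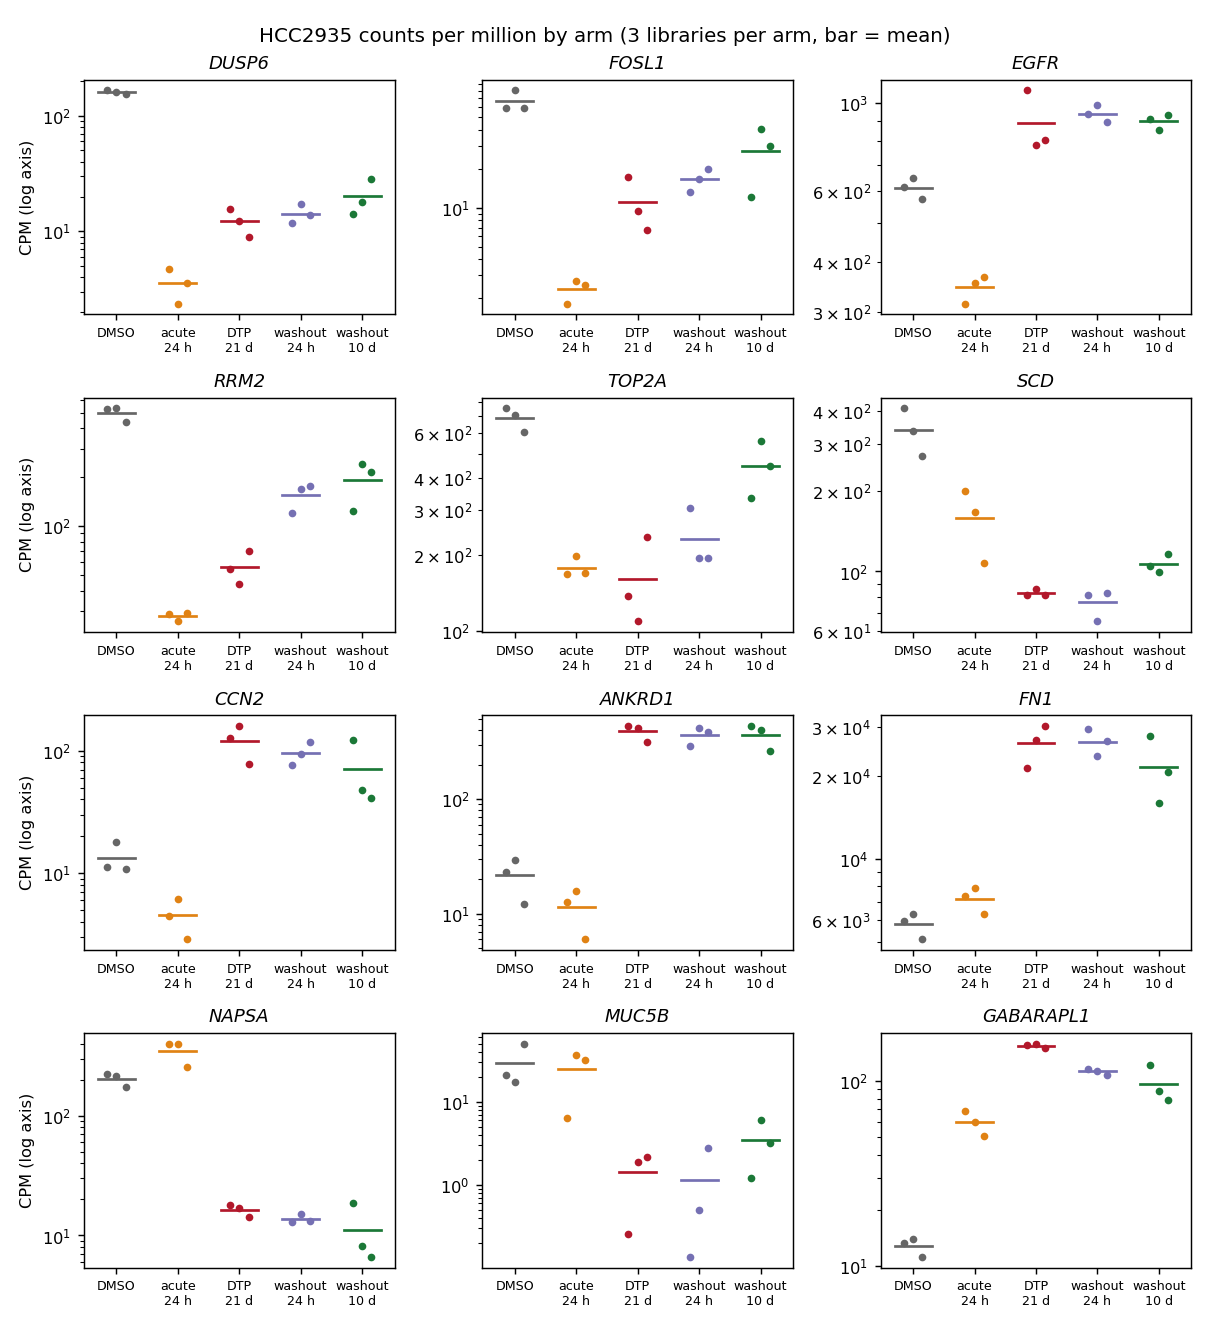
CPM (log axis) of 12 genes in the 5 HCC2935 arms (x axis), 1 point per library and a bar at the mean of 3. The acute and DTP points of DUSP6, FOSL1, RRM2 and TOP2A lie below the DMSO points, CCN2, ANKRD1 and FN1 are highest in the DTP and washout arms, and NAPSA is lower in DTP cells but not in acute cells.

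Replication and mitosis genes fell without exception. All 33 tested members of the DNA replication list and all 29 of the mitosis list were lower, against 27.2% of all genes, with median log2 fold changes of -1.65 and -1.54. RRM2, the regulatory subunit of ribonucleotide reductase, went from 525, 531 and 436 to 54.7, 43.7 and 70.5 CPM (-3.17 ± 0.17, adjusted p = 2.58e-06). TOP2A, the topoisomerase that untangles sister chromatids, went from 754, 711 and 608 to 138, 109.5 and 236 CPM (-2.12 ± 0.25), and MKI67, a chromosome coat protein used as a proliferation marker, from 512, 498 and 472 to 90.8, 63.8 and 142 CPM (-2.35 ± 0.24). No DTP library reached the DMSO range, and DTP replicate 3 was the highest of the DTP libraries for each of these 3 genes. In bulk RNA, fewer dividing cells and less RNA per dividing cell cannot be told apart. Further members were MCM10 (-2.43), CDT1 (-2.43), ORC1 (-2.30), E2F2 (-2.33) and UHRF1 (-2.26) for origin licensing and S phase, and AURKB (-2.49), KIF11 (-2.08), PLK1 (-1.95) and CENPA (-1.95) for the spindle and centromere.

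The direct test of DTP against acute cells gave different counts for the 2 lists. Of the 33 replication genes 26 were higher in DTP than in acute cells and none lower, with RRM2 at 27.9 ± 1.82 CPM and MCM10 at 2.36 ± 0.704 CPM in acute cells (log2 differences 1.02, adjusted p = 6.98e-04, and 2.02, adjusted p = 0.00114). Of the 29 mitosis genes 2 were higher and 2 lower in DTP cells. The number higher was 4 without DTP replicate 2, and the number lower was 14 without DTP replicate 3 and 0 or 1 without any other library. TOP2A averaged 178 ± 16.5 CPM and MKI67 129 ± 3.99 CPM in acute cells, and the DTP minus acute differences of -0.13 and -0.37 did not pass the test. Without DTP replicate 3 both did, at -0.51 (adjusted p = 0.0203) and -0.72 (adjusted p = 0.00568), and without DTP replicate 2 the TOP2A difference was 0.08. In the washout arms TOP2A averaged 231 ± 63.9 CPM after 24 h and 448 ± 114 CPM after 10 days, and RRM2 155 ± 29.9 and 193 ± 60.9 CPM. Genes that restrain the cycle were mixed, with 8 of 18 higher and 6 lower. MXD4, a MYC antagonist, rose from 23.8, 19.4 and 26.5 to 106, 119.9 and 119 CPM (2.28 ± 0.13), whereas the CDK inhibitors CDKN2C and CDKN2D and the pocket protein RBL1 fell (-1.71, -0.99 and -1.02).

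The promoters of mitosis genes share sequence elements, and 2 are shown because these genes fell together. The windows run from 250 bases before to 50 bases after the RefSeq start (GRCh38.p14), read on the gene's strand, with capitals marking CCAAT (or ATTGG), the CCAAT box bound by NF-Y, and TTTGAA (or TTCAAA), the cell cycle genes homology region (CHR) bound by the DREAM complex.
TOP2A, chr17:40417847-40418146, minus strand: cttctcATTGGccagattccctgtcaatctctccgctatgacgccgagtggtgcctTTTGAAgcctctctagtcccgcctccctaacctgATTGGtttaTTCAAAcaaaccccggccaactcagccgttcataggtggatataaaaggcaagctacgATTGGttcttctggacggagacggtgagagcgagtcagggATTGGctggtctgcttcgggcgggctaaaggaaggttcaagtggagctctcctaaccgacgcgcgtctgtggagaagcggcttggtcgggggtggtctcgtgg
MKI67, chr10:128126374-128126673, minus strand: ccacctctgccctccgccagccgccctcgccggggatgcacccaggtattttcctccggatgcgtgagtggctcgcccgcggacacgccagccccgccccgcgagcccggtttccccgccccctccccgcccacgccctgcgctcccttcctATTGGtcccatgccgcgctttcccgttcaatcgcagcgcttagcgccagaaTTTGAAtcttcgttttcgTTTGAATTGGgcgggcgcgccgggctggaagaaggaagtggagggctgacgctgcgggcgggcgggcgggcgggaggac
The TOP2A window held 4 CCAAT boxes and 2 CHR elements, and the MKI67 window 2 of each, where the second CHR and the second CCAAT box overlap and form 1 run of capitals. Windows were found for 24 of the 29 mitosis genes, and 14 of these (58.3%) held both motifs, against 1 of 28 replication genes (3.6%) and 7.3% of all 27058 genes with a window. These are matches of letters on either strand, not measured binding.

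Extracellular matrix genes rose more often than they fell. Of 36 tested genes of the collagen and matrix list 21 rose and 6 fell, with a median of 0.85. Among the 13 tested collagens of this list 10 rose, none fell and the median was 2.67. COL21A1, a collagen outside the list, fell in DTP cells (-1.33, adjusted p = 1.07e-04). All 6 chains of collagen IV, the network-forming collagen of basement membranes, were higher in DTP cells (COL4A2, COL4A5 and COL4A6 lie outside the naming rule and were chosen after their values were seen). COL4A1 rose from 113, 127 and 90.6 to 1289, 1674 and 1452 CPM (3.72 ± 0.15, adjusted p = 6.43e-07), and COL4A2 from 378, 413 and 287 to 1958, 2319.8 and 2209 CPM (2.56 ± 0.14). COL4A3 rose from 1.37, 1.56 and 1.23 to 184, 289 and 175 CPM, a 153-fold increase (7.25 ± 0.26, adjusted p = 3.21e-07), and COL4A4 from 10.3, 13.5 and 6.16 to 503, 656 and 502 CPM (5.77 ± 0.26). COL4A5 and COL4A6 rose by 3.15 ± 0.14 and 2.93 ± 0.10. The lowest DTP library exceeded the highest DMSO library for each chain.

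**Figure D3:**
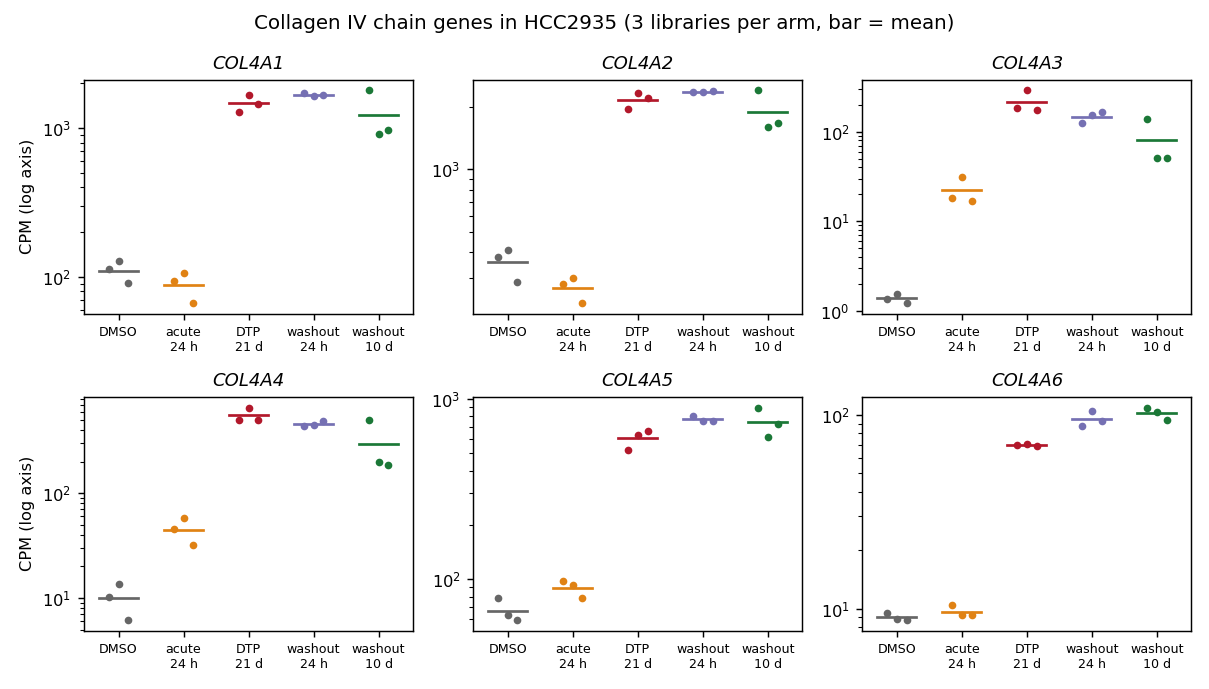
CPM (log axis) of the 6 collagen IV chain genes in the 5 HCC2935 arms (x axis), 1 point per library and a bar at the mean of 3. COL4A3 and COL4A4 are above DMSO in acute cells, at means of 22.1 and 44.9 CPM, while COL4A1 is not, at 88.8 CPM.

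Acute and DTP cells are separate cultures, so no time course was followed. The calls in acute cells were not the same for each chain, and no test between chains was run. COL4A3 and COL4A4 were higher in acute cells than in DMSO cells (3.94, adjusted p = 6.09e-06, and 2.12, adjusted p = 2.39e-04), whereas COL4A1 was not called there (-0.36, adjusted p = 0.112). DTP cells exceeded acute cells for all 3 (3.31, 3.64 and 4.06). After 10 days without drug COL4A1 averaged 1227 ± 491 CPM, COL4A3 80.1 ± 50.4 CPM and COL4A4 294 ± 178 CPM.

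The 6 genes lie in 3 head-to-head pairs, each transcribed outward from a short shared region, so the promoter windows are shown for the pair that changed most and for COL4A1. RefSeq start sites of COL4A3 and COL4A4 are 419 bases apart on chromosome 2, those of COL4A1 and COL4A2 are 127 bases apart on chromosome 13, and those of COL4A5 and COL4A6 are 380 bases apart on chromosome X (1416 for a second COL4A6 start). Capitals mark GGGCGG (or CCGCCC), the GC box.
COL4A3, chr2:227164374-227164673, plus strand: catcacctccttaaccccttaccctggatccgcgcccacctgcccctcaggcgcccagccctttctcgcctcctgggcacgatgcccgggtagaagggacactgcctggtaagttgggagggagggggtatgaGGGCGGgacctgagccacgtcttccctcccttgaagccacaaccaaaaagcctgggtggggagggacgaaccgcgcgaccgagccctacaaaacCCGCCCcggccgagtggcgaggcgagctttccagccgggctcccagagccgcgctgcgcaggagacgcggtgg
COL4A4, chr2:227164156-227164455, minus strand: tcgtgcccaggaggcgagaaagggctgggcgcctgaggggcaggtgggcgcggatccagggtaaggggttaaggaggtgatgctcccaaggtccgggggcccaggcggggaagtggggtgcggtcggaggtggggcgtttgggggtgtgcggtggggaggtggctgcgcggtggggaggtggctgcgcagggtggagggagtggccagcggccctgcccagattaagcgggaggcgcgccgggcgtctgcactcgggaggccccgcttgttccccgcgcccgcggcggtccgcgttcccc
COL4A1, chr13:110307108-110307407, minus strand: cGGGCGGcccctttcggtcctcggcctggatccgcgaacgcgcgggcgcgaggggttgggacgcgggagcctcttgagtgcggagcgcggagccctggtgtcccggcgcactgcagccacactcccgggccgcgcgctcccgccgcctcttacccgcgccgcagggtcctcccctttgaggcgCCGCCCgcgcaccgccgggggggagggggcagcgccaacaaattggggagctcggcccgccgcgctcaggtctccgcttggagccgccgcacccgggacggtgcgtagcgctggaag
The COL4A3 and COL4A1 windows held 2 GC boxes each and the COL4A4 window none, and 44.9% of all 34796 windows hold at least 1.

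The rest of the matrix list was less uniform. Of its 23 integrins, laminins and proteases 11 rose and 6 fell, with a median of 0.46. FN1, fibronectin, was among the most abundant transcripts of the line and rose from 5967, 6299 and 5123 CPM to 21366, 27092 and 30327 CPM (2.15 ± 0.14, adjusted p = 6.68e-06). SPARC, a collagen-binding matricellular protein, rose from 13.2, 17.8 and 8.15 to 139, 316 and 226 CPM (4.09 ± 0.35). COL6A2 and COL16A1 rose by 3.24 ± 0.11 and 4.30 ± 0.21, the metalloproteinase inhibitor TIMP3 by 3.61 ± 0.18, and COL3A1, at 1.55, 11.4 and 10.2 CPM in DTP cells, by 4.85 ± 0.78. LOX, which crosslinks collagen, rose from 0.415, 0.283 and 0.947 to 31.0, 23.0 and 25.0 CPM (5.55 ± 0.33). The interstitial collagenase MMP1 went the other way, from 154, 179 and 240.2 to 17.5, 5.26 and 12.2 CPM (-4.07 ± 0.37). Of the 5 tested fibroblast markers 3 rose, COL3A1 among them, and none fell, and the summed level of that list is given above.

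YAP/TEAD target genes rose, while genes of the Hippo pathway itself moved in both directions. Of 14 tested targets 12 rose and none fell, with a median of 1.27, and of 13 effectors and upstream genes 5 rose and 4 fell, with a median of -0.07. CCN2, a matricellular growth factor, rose from 11.1, 17.9 and 10.8 to 126, 159 and 77.7 CPM (3.16 ± 0.28, adjusted p = 3.35e-05), and ANKRD1, a nuclear ankyrin repeat protein, from 23.3, 29.7 and 12.2 to 434, 419 and 316 CPM (4.14 ± 0.29, adjusted p = 8.89e-06). The effector YAP1 rose slightly, from 155, 144 and 138 to 205, 185 and 194 CPM (0.39 ± 0.08, adjusted p = 0.00338), and its paralog WWTR1 (TAZ) fell (-0.54 ± 0.13, adjusted p = 0.00624). In acute cells CCN2 was below DMSO, at 4.53 ± 1.65 CPM (-1.60, adjusted p = 0.00187), and ANKRD1 was at 11.6 ± 5.07 CPM. DTP cells exceeded acute cells by 4.76 for CCN2 and 5.09 for ANKRD1 on the log2 scale. In the washout arms ANKRD1 was at 366 ± 65.1 CPM after 24 h and 365 ± 90.1 CPM after 10 days. TGFB2, NUAK2 and the RhoGAP DLC1 rose by 2.36, 2.08 and 2.82.

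The promoters of the 2 leading targets are shown with GGAATG (or CATTCC), the core bound by TEAD factors, in capitals.
CCN2, chr6:131951323-131951622, minus strand: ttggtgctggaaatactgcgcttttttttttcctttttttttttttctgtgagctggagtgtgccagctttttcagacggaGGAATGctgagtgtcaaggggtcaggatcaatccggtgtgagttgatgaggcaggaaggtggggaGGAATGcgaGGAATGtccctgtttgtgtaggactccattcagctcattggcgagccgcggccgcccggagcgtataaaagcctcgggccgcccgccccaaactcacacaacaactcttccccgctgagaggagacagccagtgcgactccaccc
ANKRD1, chr10:90921038-90921337, minus strand: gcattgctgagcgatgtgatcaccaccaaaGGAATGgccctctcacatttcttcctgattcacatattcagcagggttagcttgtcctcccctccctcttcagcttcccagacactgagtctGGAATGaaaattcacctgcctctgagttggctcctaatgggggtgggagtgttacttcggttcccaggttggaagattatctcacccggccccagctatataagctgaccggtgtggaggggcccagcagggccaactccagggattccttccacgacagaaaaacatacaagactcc
The CCN2 window held 3 such cores and the ANKRD1 window 2, and 14.0% of all windows hold at least 1. A match is a description of the letters and says nothing of occupancy in these cells.

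Mesenchymal genes rose and epithelial genes fell more often than they rose. Of 15 tested mesenchymal genes 8 rose and 1 fell (median 0.66), the single fall being lost without DMSO replicate 1, DMSO replicate 3, DTP replicate 1 or DTP replicate 3. CDH2, N-cadherin, rose from 32.0, 30.0 and 17.4 to 283, 312 and 306 CPM (3.48 ± 0.20), and VIM, vimentin, from 31.5, 36.4 and 18.4 to 218, 217 and 187 CPM (2.82 ± 0.21). The actin-binding protein TAGLN rose by 2.56 ± 0.49 and the gelatinase MMP2 by 4.32 ± 0.35. Among the transcription factors of this list 2 of 5 tested rose and none fell. Of 21 epithelial genes 11 fell and 4 rose (median -0.34). GRHL1, a grainyhead factor of epithelia, fell from 119, 127 and 139 to 22.6, 25.1 and 22.9 CPM (-2.47 ± 0.10), whereas its paralog GRHL2 rose from 2.04, 2.36 and 1.70 to 8.63, 7.73 and 7.63 CPM (1.95 ± 0.22). OVOL2, ESRP2 and KLF5, which maintain epithelial identity or splicing, fell by 1.12, 0.82 and 0.80, and the tight junction protein OCLN rose by 0.97. EPCAM, whose levels are given above, fell by 0.59 ± 0.09.

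Secretory airway genes included some of the lowest values. Of 19 tested airway genes 8 fell and 5 rose, with a median of -0.51, and 3 were higher without DMSO replicate 1 or without DMSO replicate 2. Of the 14 secretory genes among them 7 fell and 2 rose (median -0.60). The 5 ciliated genes went more often the other way, with 3 higher and 1 lower (median 1.39). The summed level of the ciliated genes was low, 7.73 to 8.76 CPM (DMSO) and 17.1 to 18.3 CPM (DTP). MUC5B, a gel-forming mucin, went from 21.4, 17.6 and 50.1 to 0.258, 1.87 and 2.17 CPM (-4.40 ± 0.61, adjusted p = 3.40e-04), and MUC5AC from 16.2, 12.5 and 27.9 to 0.472, 0.398 and 0 CPM (-5.97 ± 0.57). SPDEF, the ETS factor of goblet cells, fell from 104, 107 and 69.3 to 7.68, 4.02 and 5.80 CPM (-4.03 ± 0.25), and AGR2, the disulfide isomerase needed for mucin folding, from 760.1, 752 and 650.4 to 73.1, 64.4 and 57.1 CPM (-3.50 ± 0.12). DMSO replicate 3 was the highest library for both mucins. Of 20 airway genes tested in DTP against acute cells none was higher and 12 were lower. Acute cells did not sit at the DMSO level for this list. Against DMSO 13 of 20 tested airway genes were higher in acute cells and 3 lower, with a median of 1.04. Over all 14060 genes tested there, 3097 were higher and 3526 lower. MUC5B averaged 25.2 ± 16.5 CPM in acute cells and was not called against DMSO there (-0.29, adjusted p = 0.701), while its DTP level was lower than acute by 4.12 (adjusted p = 0.00111).

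Keratins and alveolar genes moved in both directions. Of 16 keratins 8 fell and 4 rose, and the number that rose was 2 without DMSO replicate 1 and 1 without DTP replicate 2. KRT6A, a wound and squamous keratin with close paralogs, fell from 114, 132 and 133 to 4.29, 4.50 and 2.85 CPM (-5.04 ± 0.17), and its acute value against DMSO was -4.02. The simple keratins KRT8 and KRT19 fell by 0.55 ± 0.08 and 0.96 ± 0.10. Of 22 tested lung alveolar genes 7 rose and 7 fell. NAPSA, the aspartic protease that processes surfactant and marks lung adenocarcinoma, fell from 223, 214 and 175 to 17.9, 16.9 and 14.2 CPM (-3.67 ± 0.13, adjusted p = 3.21e-07), and NKX2-1, the lung lineage factor, from 149, 139 and 154 to 94.8, 93.9 and 84.7 CPM (-0.72 ± 0.09). Both were above DMSO in acute cells (0.73 and 0.85), and the direct test gave DTP minus acute differences of -4.41 and -1.58. CAV1 and CLIC5, membrane genes of type I cells, rose from 300.4, 312 and 151 to 1239, 1495 and 1426 CPM and from 8.02, 7.60 and 4.40 to 78.4, 89.5 and 76.4 CPM. The lipid transporter ABCA3 of type II cells rose by 2.14 ± 0.28 and the lineage factor GATA6 by 1.68 ± 0.17.

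Biosynthetic and energy genes fell broadly. In the cholesterol and fatty acid list 22 of 25 members fell and 1 rose (median -0.98), in the glycolysis list 11 of 16 fell and 1 rose (2 without DTP replicate 1), in the respiratory chain list 17 of 21 fell and none rose, and in the ribosome biogenesis list 19 of 20 fell and none rose. SCD, the stearoyl-CoA desaturase, fell from 408, 336 and 270.1 to 81.6, 86.1 and 81.4 CPM (-2.05 ± 0.14). It averaged 158 ± 47.1 CPM in acute cells. FASN, IDI1 and HMGCS1 fell by 1.24, 1.19 and 1.17 on the log2 scale. HK2, the first enzyme of glycolysis, fell from 69.8, 74.3 and 69.7 to 15.2, 19.2 and 16.5 CPM (-2.09 ± 0.11), and ENO1, ALDOA and PKM fell by 1.36, 0.79 and 0.70, whereas PFKFB3, which makes the activator of phosphofructokinase, rose by 0.83 ± 0.17. Respiratory chain decreases were smaller, led by COX7A2 (-0.87), NDUFB8 (-0.86) and UQCRC1 (-0.85). FBL, the methyltransferase of ribosomal RNA, and NOP56 fell by 1.33 and 1.26. Ribosomal protein genes took 2.23% to 2.39% of counts in DMSO libraries and 1.27% to 1.35% in DTP libraries.

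Lysosome and autophagy genes rose. Of 29 tested members 21 were higher and 3 lower, with a median of 0.76, and among the 11 autophagy genes and regulators 9 rose and none fell. GABARAPL1, which is conjugated to autophagosome membranes, rose from 13.3, 14.0 and 11.2 to 155, 158 and 149.8 CPM (3.56 ± 0.11, adjusted p = 2.99e-07). The protease CTSH, the phosphoinositide-binding WIPI1 and the autophagy regulators CALCOCO1 and TP53INP1 rose by 2.08, 1.51, 1.56 and 2.04. NPC2, the lysosomal cholesterol carrier, fell by 1.65 ± 0.09. FOXO and PI3K genes were less uniform, with 9 of 25 higher and 5 lower. PIK3IP1, an inhibitor of PI3K, rose from 16.0, 13.5 and 18.0 to 66.4, 89.7 and 60.4 CPM (2.16 ± 0.18) and was higher still in acute cells (143 ± 24.5 CPM). The insulin receptor substrate IRS1 fell while IRS2 rose (-1.50 and 1.23).

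WNT and Notch genes were mostly called, 13 of 27 higher and 8 lower (median 0.45). LGR5, the R-spondin receptor of epithelial stem cells, rose from 0.748, 0.802 and 0.710 to 16.8, 12.6 and 16.8 CPM (4.31 ± 0.23), and the ligands WNT5A and WNT10A from 5.28, 7.36 and 4.12 to 42.7, 36.3 and 37.0 CPM and from 19.4, 22.9 and 19.6 to 104, 109.8 and 121 CPM. SFRP1, a secreted WNT antagonist, rose by 3.46 ± 0.41. The receptor NOTCH3 fell from 288, 307 and 315 to 78.1, 63.6 and 62.1 CPM (-2.19 ± 0.11) and the ligand DLL1 rose by 2.92 ± 0.31. In the BCL2 family 3 of 15 rose and 3 fell. BMF, a BH3-only death gene restrained by ERK and PI3K signalling, rose from 97.4, 88.6 and 186 to 344, 389 and 341 CPM (1.50 ± 0.25), and BCL2L11 (BIM) by 0.55 ± 0.12. BCL2A1, a survival gene, fell from 6.61, 5.99 and 9.19 to 0.944, 0.398 and 0.338 CPM (-3.71 ± 0.41).

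Interferon and inflammatory genes did not move as a block. Of 28 interferon-stimulated genes 4 rose and 7 fell, of 23 antigen presentation genes 8 rose and 5 fell (3 without DMSO replicate 1 or 3 or DTP replicate 2 or 3), and of 25 chemokine, interleukin and NF-kB genes 6 rose and 6 fell (3 without DTP replicate 3). OAS3, a sensor of double-stranded RNA, fell from 147, 172 and 149 to 49.1, 33.8 and 54.0 CPM (-1.80 ± 0.16), whereas STAT2 rose from 43.6, 43.4 and 63.7 to 98.3, 124 and 93.1 CPM (1.04 ± 0.17). The antigen presentation genes split by class. Of 13 class I genes 3 rose and 5 fell (median -0.0075), and of 10 class II genes 5 rose and none fell (median 0.86). The summed class II level was 31.5 to 42.4 CPM (DMSO) and 96.5 to 129 CPM (DTP). CD74, the class II invariant chain, rose from 13.8, 9.86 and 14.6 to 90.1, 54.1 and 79.9 CPM (2.52 ± 0.22). The neutrophil chemokine CXCL8 went from 31.7, 37.6 and 99.1 to 18.8, 4.50 and 3.77 CPM (-2.66 ± 0.64) and the adhesion molecule ICAM1 from 68.2, 54.4 and 84.5 to 317, 189 and 173 CPM (1.68 ± 0.24).

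Of the 12 genes that the study tested or discussed as drivers of resistance, 1 rose and 7 fell. EZH2, the histone methyltransferase of the PRC2 complex, fell from 90.5, 93.9 and 97.6 to 27.8, 25.4 and 27.8 CPM (-1.83 ± 0.09, adjusted p = 1.69e-06). FOSL1, MET, WWTR1 and YAP1 are given above. KCTD5 and KEAP1, both adaptors of cullin ubiquitin ligases, were lower by 0.41 ± 0.12 (adjusted p = 0.0171) and 0.32 ± 0.12 (adjusted p = 0.0429). KCTD5 lost its call without DMSO replicate 1 (adjusted p = 0.0579) or DMSO replicate 2 (adjusted p = 0.0774), and KEAP1 without DMSO replicate 1 or 2 or DTP replicate 1 or 2 (adjusted p 0.0879 to 0.191). Both calls were also lost with limma (adjusted p = 0.101 for KCTD5 and 0.282 for KEAP1), and that of KEAP1 with other size factors, a stricter count filter or a replicate block (adjusted p 0.0559 to 0.0835). NF1 (-0.20 ± 0.10), SRC (-0.18 ± 0.08), BCL6 (-0.40 ± 0.19) and CAND1 (-0.22 ± 0.09) did not pass the test, and BCL6 did so without DTP replicate 2 (-0.58, adjusted p = 0.0313).

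**Figure D4:**
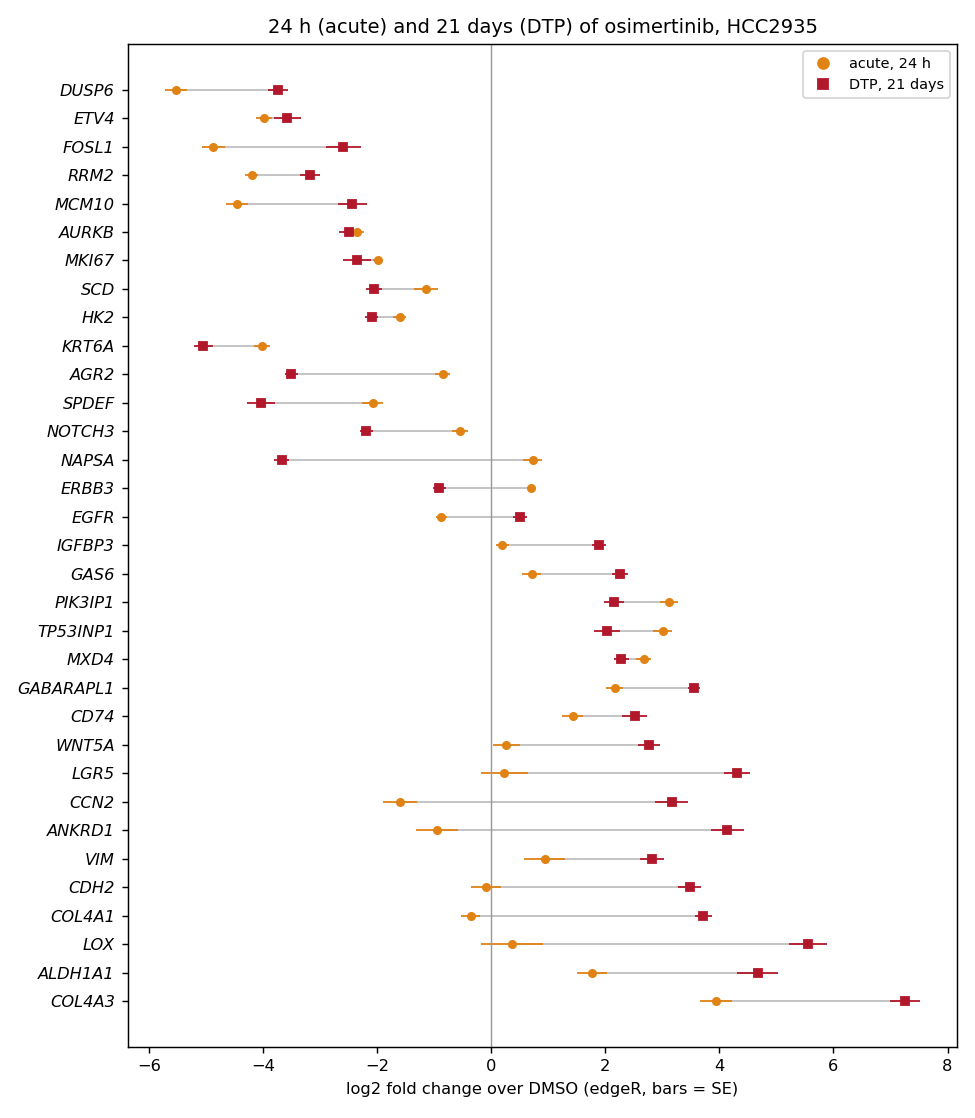
Log2 fold changes over the same 3 DMSO libraries (x axis, bars = SE) of 33 named genes after 24 h (orange circles) and 21 days (red squares) of osimertinib. ERK genes lie further left at 24 h, and COL4A1, CDH2, ANKRD1, CCN2, LOX and LGR5 lie near or left of 0 at 24 h but far right of 0 at 21 days.

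The direct test of DTP against acute cells called 6077 of 14339 genes, 3148 higher and 2929 lower in DTP cells. Both comparisons against DMSO use the same 3 DMSO libraries, so their values are given side by side. Genes close to the DMSO level at 24 h and high at 21 days included CDH2 (-0.09 and 3.48), LGR5 (0.23 and 4.31), WNT5A (0.27 and 2.77) and LOX (0.36 and 5.55), and the DTP minus acute differences of these 4 were 3.56, 4.07, 2.49 and 5.18. Genes that were higher at 24 h than at 21 days included BMF (2.54 and 1.50), CALCOCO1 (2.61 and 1.56) and PIK3IP1 (3.12 and 2.16), with direct differences of -1.05, -1.06 and -0.97. All of the differences named in this paragraph passed the test (largest adjusted p = 0.00126).

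The HCC2935 response differed in part from that of the other lines. The contrast of the HCC2935 DTP effect with the mean DTP effect of PC9, HCC827 and H1975, which shares no library between lines, called 4911 of 16001 genes (30.7%), 2491 with a more positive effect in HCC2935 (15.6%) and 2420 with a more negative one (15.1%). EGFR had the more positive effect, by 1.10 ± 0.14 (adjusted p = 4.12e-06): its DTP log2 fold changes were 0.51 in HCC2935, -0.22 in PC9, -0.67 in HCC827 and -0.79 in H1975. NRG1 differed by 2.51, TGFA by 1.82 and AREG by 2.18 in the same direction, the last being 0.73 (adjusted p = 0.115) with H1975 left out of the mean. COL4A1 differed by 3.04 ± 0.46, with fold changes of 0.89, 1.89 and -0.65 in the other lines, and CAV1 by 3.18 and CDH2 by 2.52. With PC9 left out of the mean, CDH2 differed by 1.42 (adjusted p = 0.122). EPCAM fell less in HCC2935 than in the other lines (difference 1.54; -1.18, -1.84 and -3.27).

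Among the differences of the opposite sign, NAPSA fell in HCC2935 and rose in PC9 (2.78), with values of -1.56 in HCC827 and 0.72 in H1975, a difference of -4.28 ± 0.39 (adjusted p = 9.44e-08). NKX2-1 differed by -1.58. Of 28 interferon-stimulated genes 16 had a more negative effect in HCC2935 and none a more positive one, counts that became 5 and 3 with PC9 left out of the mean. Of 23 antigen presentation genes 13 were more negative and none more positive, and 7 and 1 with PC9 left out. Of the replication and mitosis genes 5 of 33 and 1 of 29 were more negative and none more positive. Over all genes 15.1% were more negative, which the first count is near and the second is below. Without DTP replicate 3 these counts were 11 and 6, without DTP replicate 2 the first was 3, and without DMSO replicate 3 the second was 2. With H1975 left out of the mean they were 11 and 3, and with PC9 left out the first was 3. ERK output was more negative in 6 of 19 genes (10 with PC9 left out) and more positive in 1 (2 with HCC827 left out). DUSP6 was among the 6 (-1.02, adjusted p = 0.036), but with HCC827 left out of the mean it differed by 0.14 (adjusted p = 0.771), and the call was lost without any library of the 6 HCC2935 libraries except DTP replicate 1 (adjusted p up to 0.122).

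**Figure D5:**
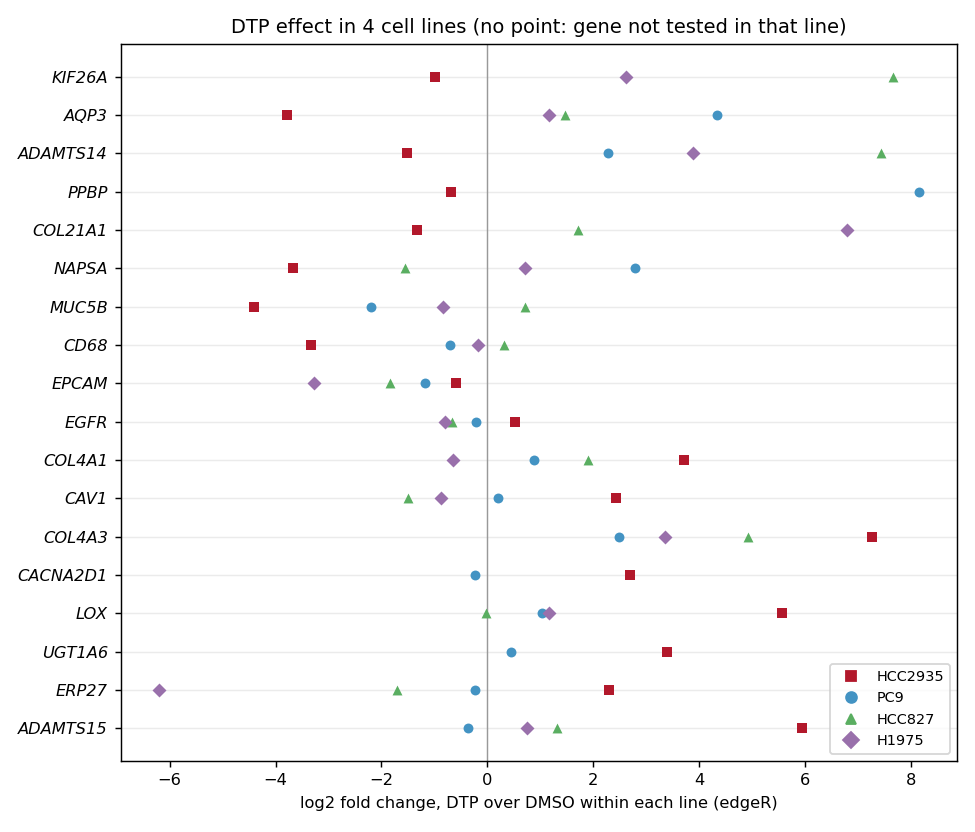
DTP over DMSO log2 fold changes (x axis) within HCC2935, PC9, HCC827 and H1975 for 18 genes with a called difference between HCC2935 and the mean of the other lines. The red square of HCC2935 lies left of 0 and of the other lines' tested points for KIF26A, AQP3 and ADAMTS14, and right of them for LOX, CACNA2D1, ERP27 and ADAMTS15.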

How the data were processed

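RNA from 60 cultures of 4 EGFR mutant lung cancer lines was prepared as poly(A)-selected TruSeq libraries and sequenced on a HiSeq4000; lanes are not given per sample. The authors deposited an estimated count and a log2(TPM + 0.01) value per gene. The submitters' processing notes name HISAT2 2.1.0, Salmon 0.8.2 and hg38; the annotation and the strand setting of the counting are not given in the sources used here. No comparison columns of the authors were used.

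Estimated counts were rounded to whole numbers. Genes passing filterByExpr within each fit were scaled by TMM and tested with edgeR 4.0.16 (R 4.3.3, quasi-likelihood F-test, 2-sided, Benjamini-Hochberg adjusted p under 0.05 over all genes tested), on the 6 HCC2935 DTP and DMSO libraries, on DTP against acute cells, and, over 24 libraries of the 4 lines, on the difference of the DTP effect between HCC2935 and the mean of the other 3. Acute cells against DMSO and each other line alone were fitted in the same way. The SE is the absolute log2 fold change over the square root of F. CPM used TMM over the 15 HCC2935 libraries and is not adjusted for gene length. Alternatives used DESeq2 1.42.0 and limma 3.58.1. On simulated counts with 100 genes changed 1.5-fold and 100 changed 2-fold among 14212, the test of DTP against DMSO recovered 35% and 74%, and 6.03% of its calls were false (DESeq2 20.6%, limma 9.84%). Far fewer genes were changed there than the 52.5% called in the data, so these rates may not carry over. The simulated limma run used log2 CPM, whereas the limma alternative used log2 TPM.

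The 37 gene lists and the members were chosen with earlier results of these data known. The text names the 10 highest and 10 lowest called genes by size (mean of 5 CPM or more, groups without overlap). Of each list the rule takes up to 6 tested members with the largest absolute log2 fold change, called or not. It also takes every tested member of the EGFR family and of the genes the study discussed, and the 5 most positive and 5 most negative differences between lines. The spread between replicates exceeded counting error (mean squared z of replicate pairs 8.97 to 37.2), so p-values rest on the spread between cultures. Of 172 genes named, 56 share bases with a neighbour on their own strand and 92 with an antisense neighbour in GENCODE release 29, and their counts may hold its reads. Some genes that the rule names are not reported here. Promoter windows are from RefSeq (GRCh38.p14).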

Additional observations from a re-analysis of the deposited data

Results flagged for a closer look

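For 11 of the 20 genes named by size, the DTP effect in HCC2935 differed from the mean DTP effect of PC9, HCC827 and H1975 by edgeR's test of the difference itself, and the differences below are on the log2 scale. Over all genes tested there the share called was 30.7%. The 20 genes were picked by their size in the same HCC2935 libraries that enter this test, so their count and values are a description. Of the genes lowest in HCC2935 DTP cells, MUC5AC differed by -5.04 (adjusted p = 0.0518 with H1975 left out of the mean), MUC5B by -3.60, DHRS9 by -5.64, ADORA1 by -3.94, SLC26A9 by -3.58, TCN1 by -3.29 and C9orf152 by -4.65. Of those highest in HCC2935, COL4A3 differed by 3.71, DCLK2 by 2.82, RNF150 by 3.03 (1.26, adjusted p = 0.248, with H1975 left out of the mean) and ADAMTS15 by 5.42. For COL4A3 the other lines rose too (2.48 in PC9, 4.91 in HCC827 and 3.35 in H1975), so the difference is one of size.

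A further 9 genes were named because their differences were the most extreme, so their values are a description. The 5 most negative differences were KIF26A (-6.17), AQP3 (-6.07), ADAMTS14 (-6.05), PPBP (-5.70) and COL21A1 (-5.65). AQP3, a water and glycerol channel, fell in HCC2935 (-3.79) and was 4.34, 1.46 and 1.16 in PC9, HCC827 and H1975. KIF26A and ADAMTS14 fell in HCC2935 (-0.99 and -1.51) against 7.65 and 7.43 in HCC827. PPBP was tested on its own in PC9 alone among the other lines (8.16), and COL21A1 in HCC827 and H1975. The 4 further positive differences were ERP27 (5.02), UGT1A6 (4.90), LOX (4.87) and CACNA2D1 (4.72). UGT1A6 shares exons with the other UGT1A genes, and its counts depend on how the authors' tool divided reads among them. Where a gene had too few counts in a line, its effect there enters the mean through edgeR's small prior count, so these sizes are less certain than those of genes expressed in all lines; this touches MUC5AC, DHRS9, SLC26A9, TCN1, KIF26A, PPBP, COL21A1, UGT1A6 and CACNA2D1. No library was tested for standing apart within its group, since groups of 3 are too small for that test.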

How the results depend on the processing

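Against 7455 genes called for DTP against DMSO, the number was 5401 at an adjusted p under 0.01, 7610 with DESeq2, 7584 with limma and 6354 to 7212 on leaving out each library in turn (3175 to 3619 higher, 3154 to 3656 lower). List members called numbered 434 to 456 without 1 library against 475, and named genes 156 to 160 against 159. The difference between lines gave 4079 to 4294 calls without 1 library (2063 to 2165 more positive, 2016 to 2183 more negative) and 3038 at an adjusted p under 0.01 (1549 and 1489). DTP against acute cells gave 4933 to 5466 calls (2589 to 2855 higher, 2344 to 2611 lower) and 3933 at 0.01 (1797 lower). The smaller numbers without a library come from fits with fewer samples. Deviations of same-numbered DMSO and DTP libraries from their group means correlated at 0.014, -0.145 and -0.188. Those of differently numbered libraries correlated at -0.117 to 0.204. Deviations within a group of 3 are tied to each other, so these values cannot settle whether replicates were paired. With a replicate block 6731 genes were called, 4294 for the difference between lines and 5734 for DTP against acute cells.

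For DTP against DMSO, none of the called named genes changed direction under any alternative run. Of those not called, EREG ranged from -0.31 to 0.66 without 1 library (-0.22 without DMSO replicate 3) and NRG4 from -2.28 to 2.20, NRG4 was 0.0075 with the block and 0.51 with limma, and SHC1 was 0.013 with limma. The TOP2A difference from acute cells ranged from -0.51 to 0.079 without 1 library, the latter without DTP replicate 2, and the DUSP6 difference between lines, which was called, turned to 0.14 with HCC827 left out of the mean. The cause of these changes was not tested. For the lists given above with no member called in a direction by edgeR for DTP against DMSO, 0 members passed an unadjusted p under 0.05 in that direction, other than 2 EGFR family ligands, 1 EGFR family inhibitor or adaptor, 1 YAP/TEAD target and 1 drug efflux transporter. DESeq2 called 0 apart from 1 ligand, and limma 0 apart from 1 respiratory chain gene. In the other tests the matching numbers were 0, other than 1 antigen presentation gene at an unadjusted p under 0.05 for the difference between lines. Low counts limit genes such as TCHHL1, ABCB1 and IGFBP5, whose fold changes rest on DMSO libraries near 0.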

Other observations

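Stress, redox and detoxification genes gave smaller or mixed counts. Of 22 tested ATF4 and endoplasmic reticulum stress genes 9 rose and 5 fell, with DNAJB9, a chaperone of the unfolded protein response, going from 19.9, 18.8 and 22.3 to 62.5, 64.4 and 56.4 CPM (1.56 ± 0.11) and the transcription factor DDIT3 rising by 1.19 ± 0.14. Of 24 oxidant defence and ferroptosis genes 8 rose (5 without DTP replicate 3) and 6 fell. SLC40A1, the iron exporter ferroportin, rose by 2.65 ± 0.16 on the log2 scale, the ferritin gene FTL, which has many pseudogenes, rose by 0.86 ± 0.12, and the NRF2 target NQO1 fell from 439.9, 506 and 450.1 to 240.2, 164 and 238 CPM (-1.14 ± 0.14). Among 11 aldehyde dehydrogenases 4 rose and 5 fell. ALDH1A1 rose from 2.95, 1.84 and 1.94 to 32.8, 65.5 and 77.9 CPM (4.67 ± 0.35) and ALDH1A3 from 506, 623 and 389 to 2077, 1418 and 1758 CPM. ALDH3A1 fell by 1.01 ± 0.15, and in acute cells it was above DMSO (1.57).

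Of 16 p53 target genes 4 rose and 6 fell, with ZMAT3 rising by 1.93 ± 0.20 and FDXR falling by 1.65 ± 0.18. Of 18 chromatin regulators linked to persisters 9 fell and 4 rose, the latter count being 1 without DTP replicate 3 and 2 without DMSO replicate 1, DMSO replicate 2 or DTP replicate 2. The maintenance methyltransferase DNMT1 fell from 234, 271 and 258 to 89.1, 69.6 and 90.5 CPM (-1.64 ± 0.12) and the H3K4 demethylase KDM5B rose from 67.3, 72.4 and 85.3 to 168, 204 and 176 CPM (1.26 ± 0.12). Of 9 tested drug efflux transporters 4 rose and none fell (1 fell without DTP replicate 1). ABCB1, the multidrug transporter, had 4, 3 and 0 counts in the DMSO libraries and 21, 87 and 50 in the DTP libraries, and ABCA1 rose from 4.70, 3.21 and 2.98 to 16.9, 21.2 and 8.70 CPM (2.07 ± 0.33). Of 14 complement and acute phase genes 7 rose and 2 fell (1 without DMSO replicate 3, DTP replicate 2 or DTP replicate 3), and the complement proteases C1R and C1S rose by 2.18 ± 0.52 and 2.52 ± 0.41. Of 5 tested neuroendocrine genes, out of 9 listed, 1 rose (2 without DTP replicate 2) and 2 fell (none without DMSO replicate 3 and 1 without any other library). Of the immune markers 2 fell, a count of 1 without DMSO replicate 1 or 3 or DTP replicate 1 or 3, and 1 of the 2 was CD68 (72.5, 64.1 and 89.3 to 7.51, 7.29 and 8.21 CPM).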
